A study of Xenopus tropicalis with 21 samples.

Results

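The 9 genes sqle, lss, cyp51a1, msmo1, nsdhl, hsd17b7, ebp, sc5d and dhcr7 encode enzymes that turn squalene into cholesterol. They were found by symbol among the 20288 rows of each deposited table. Each symbol matched 1 row in each table, and all 9 rows were tested by the authors in both. The samples were livers of mature female tropical clawed frogs, Xenopus tropicalis, taken from 5 F2 BaP, 5 F2 control, 6 F1 BaP and 5 F1 control frogs. "BaP" names a lineage whose F0 ancestors lived in benzo[a]pyrene, a polycyclic aromatic hydrocarbon, at 50 ng/L from tadpole to adult. The control lineages had F0 ancestors labelled as controls, and the only exposure named is that of the F0 frogs. How many families or clutches the frogs of a group came from is not stated. RNA was taken from 15 mg of liver per frog and sequenced as 75 bp reads from stranded poly(A) libraries.

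Vertebrate cells make squalene from acetyl units through mevalonate. After squalene, the chain is oxidised and closed into lanosterol, methyl groups are removed, and double bonds are shifted and reduced until cholesterol remains. In mammals the genes of this route are switched on together by the transcription factor SREBP2, encoded by srebf2, when membrane sterol is low. The liver is a major site of cholesterol synthesis and exports the product in lipoproteins and, after conversion, as bile acids.

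Every value below is a group FPKM (sequenced fragments corrected for transcript length and for the mapped fragments of a library), a log2 fold change (BaP over control), a p or a q (the p adjusted over all tested rows) from the authors' deposited tables, unless another source is named. The tables give 1 FPKM per group, so there is no SD between frogs to print, and how deeply a library was sequenced is unknown. Where a ± follows a log2 fold change, it is a standard error worked back from that fold change and the deposited p. Where the p stands at 5e-05, the smallest value in both tables, it is an upper bound for this way of working only. The deposited test statistic gives larger standard errors, as set out below. A gene was called at q under 0.05.

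The tissue label was checked against 15 hepatocyte markers, all of which had rows, among them alb, apob and apoa1. The marker hpd lay between 0.0613 FPKM (F1 control) and 0.103 FPKM (F2 control) in the 4 groups and was not tested. Of the 13 tested, 0 were called by Cuffdiff in either generation, although 1 had an unadjusted p under 0.05 in each. Their median log2 fold change was -0.30 in F2 and 0.30 in F1. Without alb, whose row Cuffdiff left unquantified for excess reads, they summed to 11643 FPKM in F2 BaP and 14455 FPKM in F2 control livers, and to 12340 FPKM in F1 BaP and 9094 FPKM in F1 control livers. Markers of other tissues were present as well. In skeletal muscle, 1 of 4 tested markers fell in F2 (acta1) and 3 of 5 fell in F1 (acta1, tnnt1 and ckm), and the 11 listed rows summed to 5.69 FPKM in F2 BaP and 13.2 FPKM in F2 control livers, and to 4.17 FPKM in F1 BaP and 16.6 FPKM in F1 control livers. Of 10 tested pancreas markers, 3 rose in F1 (ctrb2, cpb1 and ctrc), with 8 above 0 and 2 below. In F2, 0 of 5 tested pancreas markers were called, but all 5 were above 0, among them ctrc (4.03, q = 0.0556). In the erythrocyte list 1 of 7 tested markers rose in F1 (hbd), and 0 of 7 were called in F2. In the pigment cell list 0 of 4 tested markers were called in F1, though at an unadjusted Cuffdiff p under 0.05, 3 were lower and 1 was higher. The 1 pigment cell marker tested in F2, pmel, fell. The part of these in the results below was not tested. In a bulk liver sample, fewer cells of a type and less RNA per cell cannot be told apart.

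In F1 livers 8 of the 9 squalene-to-cholesterol genes fell in the BaP lineage. All 9 genes had a negative log2 fold change, as did 46.8% of 12426 tested genes. Of the 9, 8 fell at q under 0.05, where 1.67% of all tested genes were called in either direction and 1.05% were called lower. At q under 0.01 the count was 4 (0.515% of all), at q under 0.1 it was 8 (1.52%), and at an unadjusted p under 0.05 it was 9 (4.55%). The median log2 fold change of the 9 was -2.12, beside 0.02 for all tested genes. Their summed level was 64.6 FPKM in F1 BaP livers and 326 FPKM in F1 control livers.

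The route opens with sqle, squalene epoxidase, an oxygen-using enzyme and a control point of the pathway in mammals. It was listed at 0.0656 FPKM in F1 BaP livers, against 2.66 FPKM in F1 control livers, a 40.6-fold lower level (log2 fold change -5.34 ± 1.41, q = 0.0154). Only 4 of the 12419 finite fold changes tested in F1 were more negative. Because the F1 BaP level is so low, the value depends on the pseudocount: it was -4.06 after adding 0.1 FPKM to both groups and -1.78 after adding 1 FPKM, where msmo1 (-3.59), cyp51a1 (-3.52) and lss (-2.28) were more negative. It was also the least abundant of the 9 in every group. Lanosterol synthase, lss, which closes the ring system, stood at 11.2 FPKM in F1 BaP livers and 58.3 FPKM in F1 control livers (-2.38 ± 0.59, q = 0.00654).

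Of the demethylation enzymes, cyp51a1, a cytochrome P450 that removes the first methyl group of lanosterol, stood at 5.47 FPKM in F1 BaP livers and 73.1 FPKM in F1 control livers (-3.74 ± 0.92, q = 0.00654). It was the most abundant member in F1 controls and the fifth most abundant in F1 BaP livers. The gene msmo1, whose product oxidises the remaining pair of methyl groups, stood at 3.92 FPKM in F1 BaP livers against 58.5 FPKM in F1 control livers (-3.90 ± 0.96, q = 0.00654). Its partners in the same demethylation complex had smaller fold changes, though no test was made between genes. The decarboxylating dehydrogenase gene nsdhl had 3.08 FPKM in F1 BaP livers and 7.06 FPKM in F1 control livers (-1.20 ± 0.35, q = 0.0367). The ketoreductase gene hsd17b7 had 5.82 FPKM in F1 BaP livers and 14.0 FPKM in F1 control livers (-1.26 ± 0.35, q = 0.0250).

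The last steps rearrange double bonds. The desaturase gene sc5d had 14.1 FPKM in F1 BaP livers and 47.6 FPKM in F1 control livers (-1.75 ± 0.45, q = 0.0113). The final reductase gene dhcr7 had 18.3 FPKM in F1 BaP livers and 53.8 FPKM in F1 control livers (-1.55 ± 0.38, q = 0.00654). It was the most abundant member in F1 BaP livers. The sterol isomerase gene ebp was the 1 member not called. It had 2.53 FPKM in F1 BaP livers and 11.0 FPKM in F1 control livers (-2.12 ± 0.72, p = 0.00315, q = 0.116 in the authors' Cuffdiff table). Its fold change lay within the range of the called members, and its row covers only 698 bases on an unplaced scaffold.

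**Figure D1:**
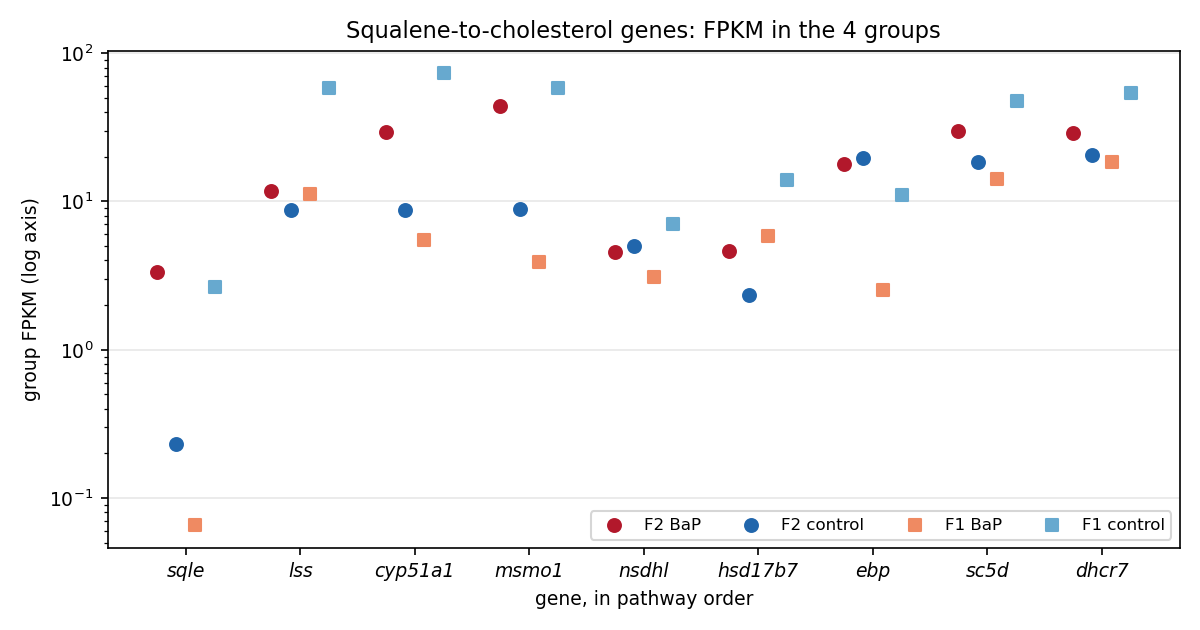
Group FPKM (log axis) of the 9 genes in pathway order, with 1 point per group from the authors' deposited tables and no error bars, since values of single frogs are not in them. F1 control is the highest of the 4 points for 7 of the 9 genes and F1 BaP the lowest for 7.

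In F2 livers part of the same route was higher in the BaP lineage. Of the 9 genes, 4 rose at q under 0.05 and 0 fell in the Cuffdiff test, where 1.32% of 12236 tested genes were called in either direction and 0.793% were called higher. At q under 0.01 the count higher was 1 (0.343% of all), at q under 0.1 it was 4 (1.12%), and at an unadjusted p under 0.05 it was 5 (4.41%). In all, 7 of the 9 had a positive log2 fold change, as did 45.8% of tested genes. The median log2 fold change was 0.71, beside -0.03 for all tested genes. The summed level of the 9 was 175 FPKM in F2 BaP livers and 92.6 FPKM in F2 control livers.

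Without a pseudocount sqle again had the largest fold change of the 9: it stood at 3.32 FPKM in F2 BaP livers and 0.232 FPKM in F2 control livers, 14.3-fold higher (log2 fold change 3.84 ± 1.03, q = 0.0207). Of the 12234 finite fold changes tested in F2, 4 were larger. After adding 1 FPKM to both groups the value was 1.81, below that of msmo1 (2.20). For msmo1 the levels were 44.2 FPKM in F2 BaP livers and 8.85 FPKM in F2 control livers (2.32 ± 0.57, q = 0.00755). For cyp51a1 they were 29.4 FPKM in F2 BaP livers and 8.76 FPKM in F2 control livers (1.74 ± 0.45, q = 0.0130). The fourth called gene was hsd17b7, with 4.63 FPKM in F2 BaP livers and 2.33 FPKM in F2 control livers (0.99 ± 0.27, q = 0.0282).

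The other 5 genes did not pass in F2. In sc5d the levels were 29.9 FPKM in F2 BaP livers and 18.3 FPKM in F2 control livers (0.71 ± 0.31, p = 0.0237, q = 0.394 by the authors' Cuffdiff). In dhcr7 they were 29.2 FPKM in F2 BaP livers and 20.7 FPKM in F2 control livers (0.49 ± 0.27, q = 0.616), and in lss 11.8 FPKM in F2 BaP livers and 8.75 FPKM in F2 control livers (0.43 ± 0.29, q = 0.785). Both nsdhl (4.58 FPKM in F2 BaP livers, 4.97 FPKM in F2 control livers, -0.12 ± 0.26, q = 0.991) and ebp (17.8 FPKM in F2 BaP livers, 19.6 FPKM in F2 control livers, -0.14 ± 0.38, q = 0.997) had slightly negative values.

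The 9 steps can also be grouped by their chemistry. The 4 oxygen-using enzymes (sqle, cyp51a1, msmo1 and sc5d) had log2 fold changes of -5.34 to -1.75 in F1, with a median of -3.82, while the other 5 lay between -2.38 and -1.20, with a median of -1.55. In F2 the oxygen-using enzymes had 0.71 to 3.84, with a median of 2.03, and the other 5 had -0.14 to 0.99, with a median of 0.43. This split was made after the values were seen and is a description. Across the 9 genes the F2 and F1 changes were negatively correlated, more so by value than by rank. Pearson's r between them was -0.91 and Spearman's rho -0.63, and without sqle r was -0.79 and rho -0.48. The 9 values of a generation share the same libraries, so genes are not independent replicates here. Over 10367 genes tested in both tables, with at least 1 FPKM in the higher group of each, the same r was 0.03 and rho was -0.11.

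**Figure D2:**
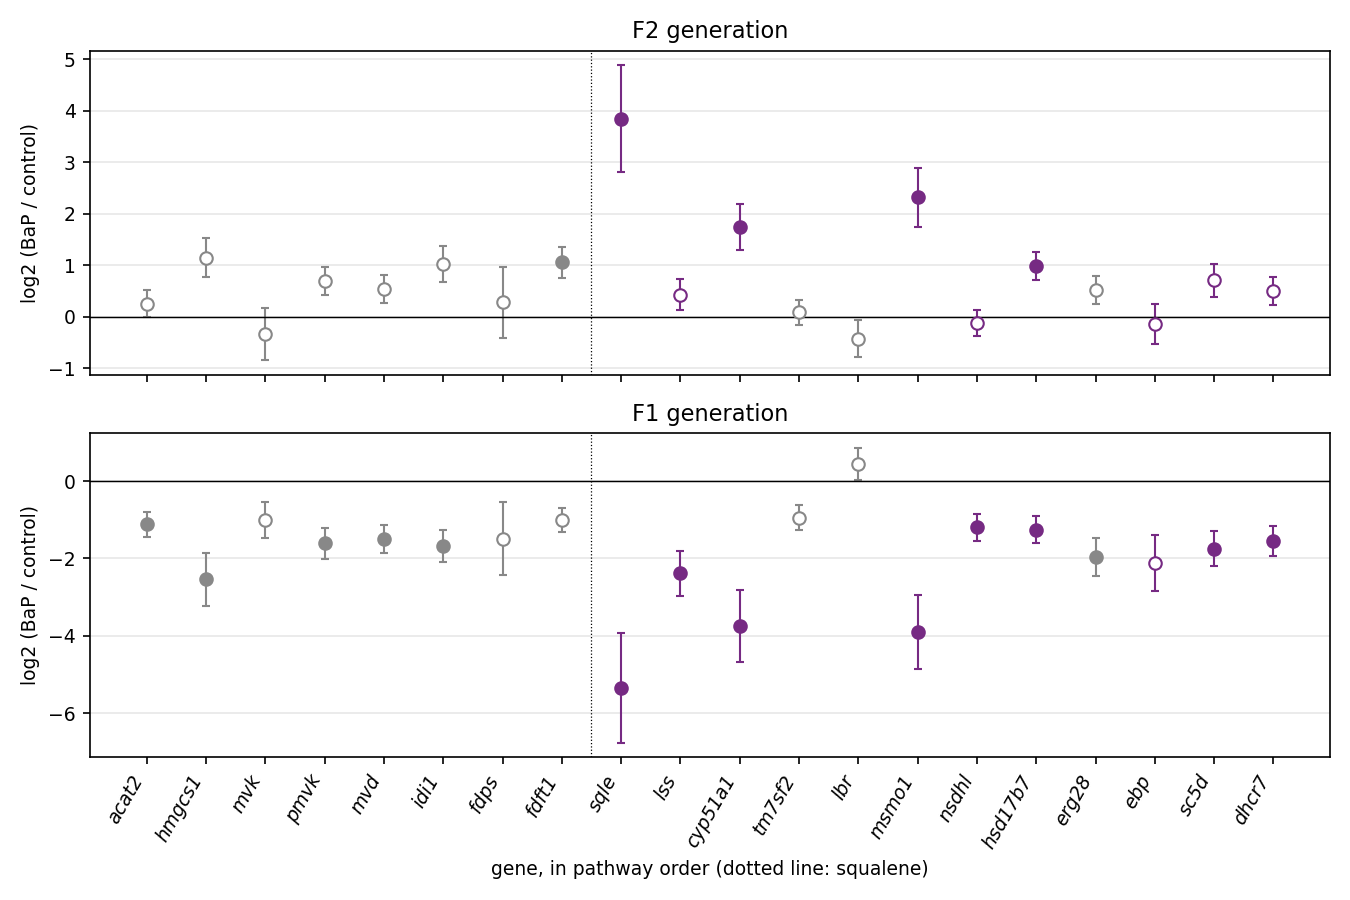
Log2 fold change (BaP over control) along the pathway in F2 (upper) and F1 (lower), from acat2 to dhcr7; purple marks the 9 squalene-to-cholesterol genes, grey the other pathway genes, filled points q under 0.05, and bars 1 standard error taken from the deposited p. In F1 sqle, cyp51a1 and msmo1 lie lowest, and in F2 the same 3 lie highest.

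The change in F2 was next set against the change in F1, since each generation has its own controls and no library is shared. With standard errors taken from the deposited p, 7 of the 9 genes differed between the generations, all upward, after Benjamini-Hochberg adjustment at 0.05 over 11677 genes. Of those 11677 genes, 0.959% passed in either direction and 0.591% upward. The test treats each change as normal around the authors' pooled value. All 9 differences (F2 minus F1) were positive. The difference was 9.19 for sqle (95% interval 5.76 to 12.6), 6.22 for msmo1 (4.02 to 8.41) and 5.49 for cyp51a1 (3.48 to 7.50). It was 2.81 ± 0.66 for lss, 2.46 ± 0.55 for sc5d, 2.25 ± 0.44 for hsd17b7 and 2.04 ± 0.47 for dhcr7. The 2 genes that did not pass were ebp, with a difference of 1.98 (0.39 to 3.57), and nsdhl, with 1.08 (0.23 to 1.92).

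These calls depend on how the error is read from the tables. The deposited test statistic gives larger standard errors than the deposited p, and with it 1 of the 9 differences passed, that of msmo1 (95% interval 3.61 to 8.83), which was also the 1 gene of all tested to pass. With that statistic the interval ran from 4.68 to 13.7 for sqle and from 2.99 to 7.98 for cyp51a1, and it lay above 0 for 7 of the 9 genes and for 0.42% of 11678 genes. For ebp it ran from -1.11 to 5.06 and for nsdhl from -0.76 to 2.92.

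**Figure D3:**
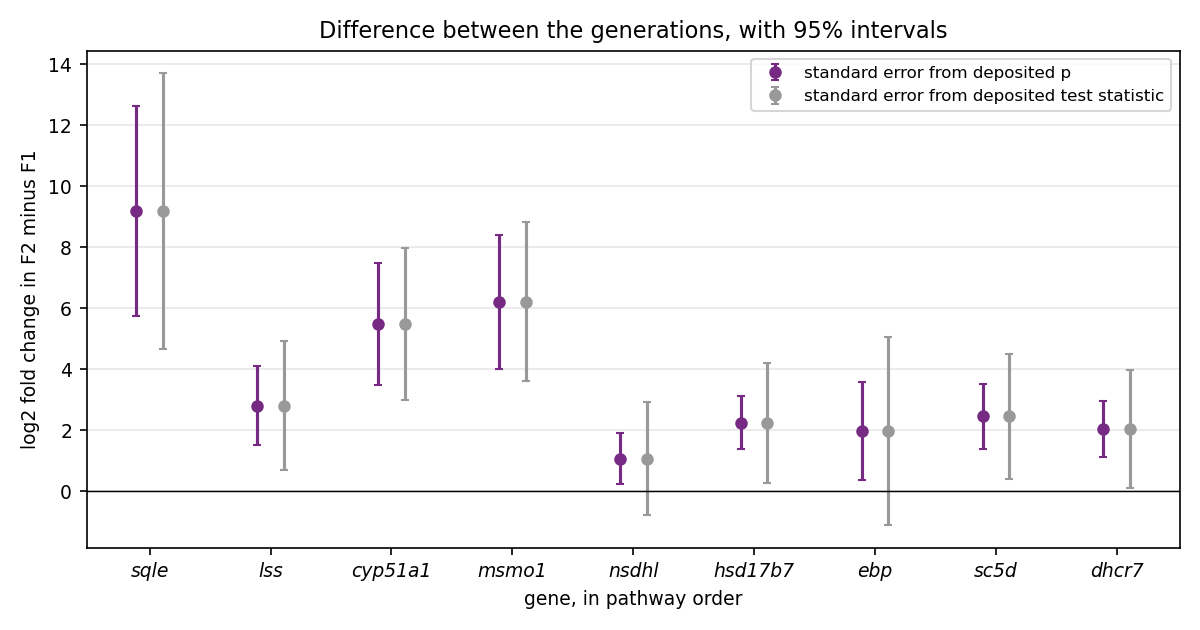
Log2 fold change in F2 minus that in F1 for the 9 genes, with 95% intervals from the standard error of the deposited p (purple) and from that of the deposited test statistic (grey). All 9 points lie above 0, and the wider grey intervals of nsdhl and ebp reach below it.

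The levels in the 4 groups were then set side by side. The F2 and F1 tables were made separately, so levels set across them carry no test. In F2 control livers 8 of the 9 genes stood below their level in F1 control livers, and 7 were at least 2-fold lower, as were 27.2% of 11678 genes compared. The median log2 ratio (F2 control over F1 control) was -2.58 for the 9 and -0.33 for all, so most genes also stood below. The ratio was -3.52 for sqle, -3.06 for cyp51a1, -2.74 for lss, -2.72 for msmo1 and -2.58 for hsd17b7. The exception was ebp, at 19.6 FPKM in F2 control livers and 11.0 FPKM in F1 control livers (0.84).

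In BaP livers the order of the generations was the other way. There 8 of the 9 genes were higher in F2 BaP than in F1 BaP livers, with a median log2 ratio of 1.08, beside -0.35 for all genes, and hsd17b7 was the exception (-0.33). The F2 BaP level stayed below the F1 control level for 7 of the 9 genes, and it was above it for sqle (0.32) and ebp (0.70). The median log2 ratio (F2 BaP over F1 control) was -0.67 for the 9 and -0.34 for all genes, so most genes also stood below. By group, the median FPKM of the 9 genes was 17.8 in F2 BaP, 8.76 in F2 control, 5.47 in F1 BaP and 47.6 in F1 control livers. The summed levels were 175 FPKM in F2 BaP, 92.6 FPKM in F2 control, 64.6 FPKM in F1 BaP and 326 FPKM in F1 control livers. Without values of single frogs, which neighbouring levels in that order differ beyond the spread between frogs could not be assessed.

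Of 5 other genes that act after squalene, 2 fell in F1. One was erg28, which in yeast holds the demethylation complex together, at 6.69 FPKM in F1 BaP livers and 26.1 FPKM in F1 control livers (log2 fold change -1.96, q = 0.00654). The reductases that follow cyp51a1 did not pass: tm7sf2 had -0.95 (q = 0.122) and lbr, which also binds the nuclear lamina, had 0.44 (q = 0.992). The reductase gene por, which passes electrons to sqle and cyp51a1, had 0.28 (q = 1.0). In F2 these 5 genes had 0 calls in the Cuffdiff test and 1 gene with an unadjusted p under 0.05. With standard errors from the deposited p, the difference between generations passed for erg28 (2.48 ± 0.55), and with those from the test statistic it did not.

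The mevalonate steps before squalene had calls in the same directions. In F1, 6 of 9 genes fell and 0 rose, with a median log2 fold change of -1.49. Among them were the synthase gene hmgcs1 (-2.53, q = 0.0191), idi1 (-1.67), pmvk (-1.61), mvd (-1.49) and acat2 (-1.12). In F2, 2 of the 9 rose and 0 fell, with a median of 0.69, among them the squalene synthase gene fdft1 (1.05, q = 0.0380). The level of fdft1 was 14.7 FPKM in F2 BaP and 7.09 FPKM in F2 control livers, and 12.7 FPKM in F1 BaP and 25.5 FPKM in F1 control livers (-1.01, q = 0.0518). At an unadjusted Cuffdiff p under 0.05, 5 of the 9 were higher in F2. With standard errors from the deposited p, the difference between generations passed for genes including hmgcs1 (3.68), idi1 (2.70), pmvk (2.30), fdft1 (2.06) and mvd (2.03). It did not pass for fdps (1.77), acat2 (1.38) and mvk (0.67). With standard errors from the test statistic it passed for none of the 9. No test was made of the members against these mevalonate genes.

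Genes that sense and import sterol had 0 calls in either generation. Of 16 tested in F1, 1 had an unadjusted p under 0.05, srebf2 itself (-0.78, q = 0.328 in the authors' Cuffdiff table), at 13.0 FPKM in F1 BaP livers and 22.4 FPKM in F1 control livers. Of 17 tested in F2, 2 had an unadjusted p under 0.05, both higher, and srebf2 had 0.35 (q = 0.864). The SREBP retention gene insig1 had -0.22 in F2 and -0.39 in F1, and the LDL receptor gene ldlr had 0.63 in F2 and -0.41 in F1, none with q under 0.05. Among 8 tested genes of cholesterol use, cyp7a1, which starts bile acid synthesis, was the 1 called gene (-2.96 in F1, q = 0.00654). It had -0.11 in F2 (q = 0.997). With standard errors from the deposited p, the difference between generations did not pass for cyp7a1 (2.85). In that list it passed for cyp8b1.1 alone, downward (-2.09), and with those from the test statistic for none.

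Fatty acid synthesis, which SREBP1 governs in mammals, had calls in both directions. In F1, 1 of 10 tested genes rose, the desaturase gene scd (1.69, q = 0.0320), and 1 fell, acss2.2, which makes acetyl-CoA from acetate (-2.34, q = 0.00654). In F2, 1 of 12 rose, acss2.2 (1.17, q = 0.0408), and 1 fell, the malic enzyme gene me1 (-1.24, q = 0.00755).

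**Figure D4:**
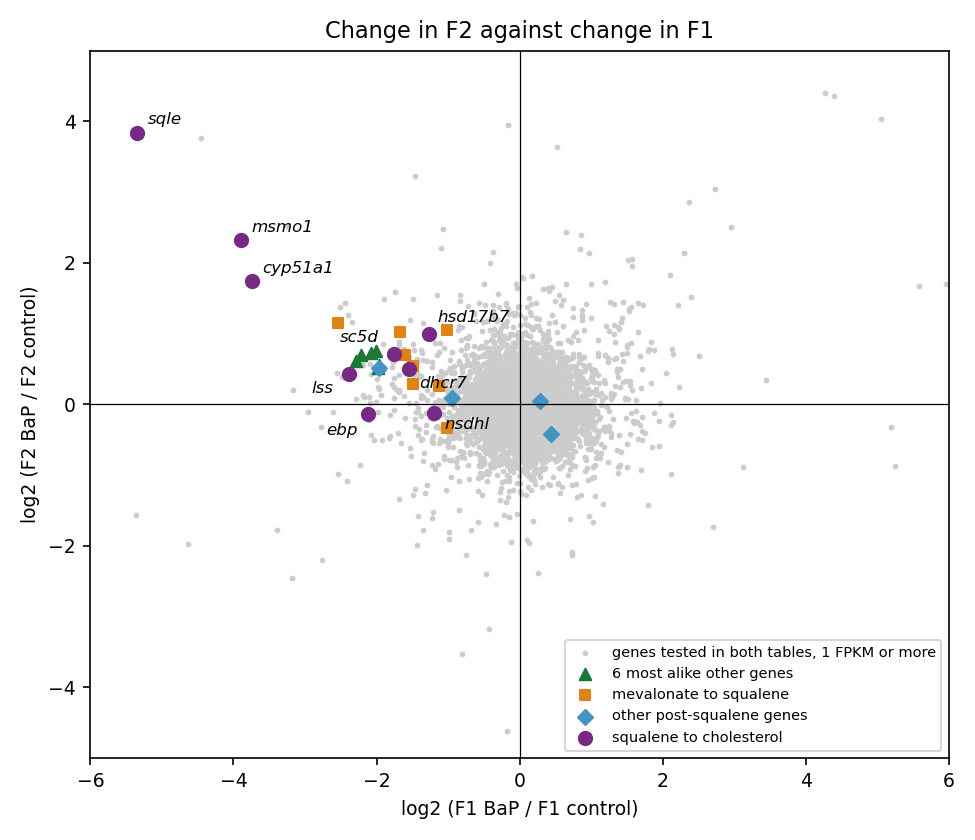
Log2 fold change in F2 (vertical) against that in F1 (horizontal) for 10367 genes tested in both tables, of which 6 lie outside the axes. Each had at least 1 FPKM in the higher group of each table. The 9 squalene-to-cholesterol genes (purple) lie left of 0, with sqle, msmo1 and cyp51a1 at the upper left.

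Being called lower in F1 and higher in F2 was rare: 9 of 11679 genes tested in both tables (0.0771%) met both. Of these, 4 belong to the squalene-to-cholesterol set (sqle, msmo1, cyp51a1 and hsd17b7) and 1 is acss2.2. Outside the pathway lists were 3, the lipase gene lipe (3.22 in F2, -1.46 in F1), the transglutaminase gene tgm4 (2.52 in F2, -3.25 in F1) and the adaptor protein gene ap1m2 (2.21 in F2, -1.09 in F1).

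The 6 genes whose pair of changes lay nearest to the members' median pair (0.71 in F2, -2.12 in F1) belonged to none of the sterol lists. That holds for these 6 only. The post-squalene gene erg28 (0.51 in F2, -1.96 in F1) also lay close to that pair, though not among the 6. The search covered 9289 other genes with at least 1 FPKM in the higher group of each table. Rows with more than 1 symbol, and genes whose symbol begins with LOC, were left out. The 6 nearest were the amino acid transporter gene slc38a3, cfap45, cdkl4, lrrc23, the histone gene h2ac17 and cdhr4. They lay at distances of 0.04 to 0.23 on the log2 scale over 2 comparisons. The members themselves lay 0.36 (sc5d) to 4.50 (sqle) from that point. The nearest, slc38a3, had 0.73 in F2 (q = 0.405) and -2.08 in F1 (q = 0.00654). The cilium gene cfap45 had 0.69 in F2 (q = 0.497) and -2.21 in F1 (q = 0.00654). In F1, 2 of 10 tested motile cilium markers fell (dnah9 and hydin) and 9 of 10 were below 0, with a median of -1.44. At an unadjusted Cuffdiff p under 0.05, 7 of the 10 were lower in F1, as were 4.55% of all tested genes. In F2, 8 of 9 were above 0, with a median of 0.50. Cuffdiff called 0 of them in F2, while dnai1 alone had an unadjusted p under 0.05 (-0.76). The 14 cilium rows summed to 17.5 FPKM in F2 BaP and 16.4 FPKM in F2 control livers, and to 19.7 FPKM in F1 BaP and 28.6 FPKM in F1 control livers. The F1 sums hold much of dnah5, the 1 tested marker above 0 in F1 (0.34). It had 12.5 FPKM in F1 BaP and 9.89 FPKM in F1 control livers. Whether these transcripts bear on the sterol genes was not tested.

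The neighbours of the 9 genes on the chromosomes were looked at next. Positions follow the authors' tables, counted from 1, and 9 of 9 starts and 7 of 9 ends equal those of the RefSeq genes on assembly UCB_Xtro_10.0. On chromosome 6 lie sqle (143392404 to 143401523) and cyp51a1 (31583071 to 31593074), and on chromosome 4 dhcr7 (5247072 to 5257834) and hsd17b7 (119138587 to 119148695). The gene msmo1 is on chromosome 1 (51289873 to 51298270), sc5d on 7 (77963236 to 77975885), nsdhl on 8 (65509760 to 65522388) and lss on 9 (61031577 to 61054223), while ebp is on an unplaced scaffold (141 to 838). Each span covers exons and introns together. The deposited rows of lss and hsd17b7 end before the RefSeq ends, at 61054245 and 119149722. Of the 16 nearest tested genes on either side of the 8 placed members, 1 was called in F1, LOC100145323 (-1.22, q = 0.0386). It is the neighbour before hsd17b7 and had -0.49 in F2 (q = 0.653). Of the 16 genes, 0 were called in F2, where the smallest deposited q among them was 0.364. Their median log2 fold change was 0.07 in F2 and -0.15 in F1. In RefSeq the end of hsd17b7 overlaps LOC101734676, which had 0.94 in F2 (q = 0.364) and -0.73 in F1 (q = 0.523), so reads near that end may belong to either gene.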

How the data were processed

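The submitters' processing notes name HISAT2, Trimmomatic 0.32.1, and both Cuffdiff and Cufflinks 0.0.7. Roles, parameters and the genome build are not stated there. Each deposited table compares BaP with control in 1 generation, per the file headers. The deposited FPKM is 1 value per group, pooled by the authors over its frogs. The deposited log2 fold change has no pseudocount. The deposited p-value and q-value, and the authors' test statistic (a score), come from Cuffdiff. Since 1 value stands for 5 or 6 frogs, the spread between frogs enters only through that test statistic and those p-values and q-values.

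The members and gene lists were chosen with earlier results of these data known. Named genes were all 9 members, pathway and marker genes called in either table, tm7sf2, lbr, srebf2, insig1 and ldlr, genes called lower in F1 and higher in F2, and the 6 genes with the most similar pair of changes. Of the genes so chosen, 2 are not reported here but stay in the tests and counts. The genes por, cyp8b1.1, dnai1, dnah5, LOC100145323 and LOC101734676 were named after their values were seen. The difference between generations was divided by a standard error worked back from fold change and p, and adjusted by Benjamini-Hochberg (SciPy 1.17.1, Python 3.11.15). A test on simulated data came first. It used standard errors worked back in the same way, so it could not show whether they were right. Alternatives were other thresholds, filters, pseudocounts, centring and standard errors. Promoter and protein sequences were not analysed here.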

Additional observations from a re-analysis of the deposited data

Results flagged for a closer look

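The change between BaP and control livers differed between the F2 and F1 generations for 7 of the 9 genes. This was by the normal test of the difference with standard errors from the deposited p. Of 11677 genes, 0.959% passed that test in either direction and 0.591% upward. With standard errors from the deposited test statistic, 1 of the 7 passed, msmo1, and 6 did not. The difference in log2 fold change (F2 minus F1) was 9.19 for sqle, 6.22 for msmo1, 5.49 for cyp51a1, 2.81 for lss, 2.46 for sc5d, 2.25 for hsd17b7 and 2.04 for dhcr7. In the first 3 and hsd17b7 both changes were called, higher in F2 and lower in F1. In lss, sc5d and dhcr7 the F1 fall was called and the F2 value was positive and not called.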

How the results depend on the processing

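Of the settings tried, counts of members called within a generation were most sensitive to the threshold. Those counts rest on the deposited p and were not repeated with standard errors from the test statistic. The count of members differing between the generations was most sensitive to the source of the standard error. At q under 0.01, 1 member was called in F2 (of 81 genes in all) and 4 in F1 (of 95 in all). Under the next settings 4 were called in F2 and 8 in F1, with the genes called in all, in either direction, in brackets. These were q under 0.1 (234 in F2, 315 in F1) and q recomputed (162 in F2, 207 in F1). The same held with at least 1 FPKM in the higher group (160 in F2, 196 in F1). It also held with a 1.5-fold minimum (162 in F2, 207 in F1). The median log2 fold change of the members was 0.68 in F2 and -1.76 in F1 with a pseudocount of 1, 0.74 in F2 and -2.14 in F1 after centring on all tested genes, and -2.07 in F1 with a pseudocount of 0.1. The difference between generations passed for 7 members when scaled to its own spread (91 genes in all) and with the FPKM minimum (115). It also passed for 7 members at an adjusted p under 0.01 (54 genes in all) and after centring (116). With standard errors from the test statistic it passed for 1 member, the 1 gene of all to pass. No single member changed sign with either pseudocount or after centring, but the size of the change in sqle, the least abundant, moved: with a pseudocount of 1 its log2 fold change was 1.81 in F2 and -1.78 in F1. No paired analysis was possible because the tables hold no values of single frogs, and leaving out single frogs was not run for the same reason. Library depth is unknown, which limits the lowest values most, such as those of sqle.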
